A study of Mus musculus with 9 samples.

Results

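The 60 mouse genes described here encode proteins that take a cell into mitosis, build the spindle, join chromosomes to it and divide the cell. They were taken from a list made by known function and were found by symbol among 56620 gene-level entries. This list and those set beside it were chosen with earlier results of these data known. The counts below therefore describe the list and do not test it anew. All 60 had a value, and 56 reached the mean of 1 FPKM needed for testing, among 13831 genes that did. FPKM counts sequenced fragments per unit of transcript length and per unit of library depth, and it was summed here over the transcripts of a gene. Levels are given as scaled FPKM, after a median-ratio size factor had been divided out of every library.

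Cells sold as primary mouse pulmonary microvascular endothelial cells were cultured for 48 h in 3 conditions, with 3 total RNA libraries in each. The control group, RA, stood in room air (21% oxygen). HO stood in hyperoxia (85% oxygen), and HO-rWNT5A in 85% oxygen plus 100 ng/ml of recombinant WNT5A, a secreted signalling protein. No genetic change is given in the labels, and the cells were bought from a supplier, so that the number of animals behind them is not given in the sources used here. Whether replicate libraries were separate cultures is not in the labels either, and the p-values therefore speak only of library-to-library spread, part or all of which may be technical.

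The labelled cell type was checked against marker genes. Of 16 pan-endothelial markers, 11 averaged below 1 FPKM across all 9 libraries, among them Pecam1 at 0.093 ± 0.035 and Cdh5 at 0.0543 ± 0.0176 (SD, n = 9), while Flt1 and Emcn stood at 37.9 ± 4.59 and 10.1 ± 1.11. Of 9 pericyte and smooth muscle markers, 7 had at least 5 FPKM, with Acta2 at 1580 ± 142 and Tagln at 886 ± 88.4. The other 2, Myh11 and Rgs5, averaged 0.236 ± 0.0397 and 0.758 ± 0.155. Among 7 fibroblast markers 4 averaged below 1, while Col1a1 stood at 183 ± 23.2. Among 7 epithelial markers 2 averaged below 1, while Krt18 stood at 54.8 ± 5.62. Among 3 mesothelial markers 2 averaged below 1, while Wt1 stood at 23.4 ± 3.42. None of 7 leukocyte and macrophage markers reached 5 FPKM. The summed pericyte and smooth muscle markers ranged from 2960 to 3310 in RA, 2430 to 3310 in HO, and 2720 to 3120 in HO-rWNT5A. The summed pan-endothelial markers ranged from 54.7 to 59.7, from 53.6 to 61.8 and from 45.4 to 56.6. No pair of libraries held identical values. Roughly estimated depth was 21300000 to 26500000 fragments per library, so that 1 FPKM of a 2 kb transcript stood for 42.6 to 53.0 fragments. HO replicate 3 had the lowest share of FPKM in small structural RNA (20.16%, highest 28.15%) and the highest in retained-intron transcripts (7.09%), and HO replicate 2 had the lowest share in retained-intron transcripts (5.26%), so counts are also given without them.

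Mitosis begins when the kinase Cdk1, bound to A- and B-type cyclins, becomes active with the help of the Polo and Aurora kinases. Kinetochores, the protein complexes built on the centromeres, catch the spindle's microtubules, and a checkpoint delays the separation of sister chromatids until all are attached. Kinesin motors and microtubule bundling proteins then shape the spindle and its midzone, where a contractile ring cuts the cell. Many of these genes are transcribed mainly in the G2 and M phases of the cell cycle, so their RNA in a culture depends on how many cells are in those phases. In bulk RNA, fewer cells of that kind and less RNA per cell cannot be told apart.

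A short promoter element, the cell cycle genes homology region (CHR), is known from many genes of this kind, and it is shown first because most of these genes carry a match close to the transcription start. Promoter windows of 300 bases, from 250 before to 50 after the transcription start, were taken from RefSeq (GRCm38.p6) and were matched for 50 of the 60 genes, which had 54 windows. The letters searched were TTTGAA and TTCGAA on both strands (TTCAAA being the first read on the other strand). A match lay within 50 bases of the start in 37 of the 54 windows, or 68.5%, against 1743 of 32851 windows of all genes, or 5.31%. The following 8 stretches come from genes that were lower in HO than in RA, with the match in capitals and 10 bases on either side, 5′ to 3′ on the strand of the gene.
Plk1: cagcgccgcgTTTGAAttcggggagg
Aurka: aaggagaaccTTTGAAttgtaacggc
Ccnb2: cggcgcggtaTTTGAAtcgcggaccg
Prc1: tctggctcggTTTGAAttccgcgggg
Racgap1: ggtgcgtgatTTTGAAccggatctgg
Cenpa: cgggtgatttTTTGAActgctggcga
Kif11: gtctccatttTTCAAAattgaggcgc
Top2a: tagataaaggTTCAAAtgaaactagg
They lie at chr7:122159455-122159480 (plus strand) for Plk1, chr2:172370523-172370548 (minus strand) for Aurka, chr9:70421535-70421560 (minus strand) for Ccnb2, chr7:80294436-80294461 (plus strand) for Prc1, chr15:99651636-99651661 (minus strand) for Racgap1, chr5:30666892-30666917 (plus strand) for Cenpa, chr19:37376353-37376378 (plus strand) for Kif11 and chr11:99024197-99024222 (minus strand) for Top2a. Counted from the start, with the base before it as -1, the matches begin at base 31 in Plk1, 33 in Aurka, 5 in Ccnb2, -5 in Prc1, 6 in Racgap1, 17 in Cenpa, -19 in Kif11 and -23 in Top2a. In Kif11 and Top2a the letters read TTCAAA on the strand of the gene.

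The same letters also stood within 50 bases of the start of genes whose RNA did not pass the test. These 4 were picked, after the values were seen, from members with a match and a small difference between HO and RA. Ncaph and Birc5, whose differences were also small, had a window with no match.
Ccnf: tcccggcgcgTTTGAAaacggggcgg
Bub3: gccgttggcgTTCAAAatcagccaat
Spc25: cggtggagagTTTGAAattgaaagac
Ncapg: gcgatagttgTTTGAAaactctggcg
They lie at chr17:24251408-24251433 (minus strand) for Ccnf, chr7:131560317-131560342 (plus strand) for Bub3, chr2:69206174-69206199 (minus strand) for Spc25 and chr5:45669885-45669910 (plus strand) for Ncapg. The matches begin at base -14 in Ccnf, -43 in Bub3, 25 in Spc25 and -30 in Ncapg. Bub3 has another window, with a different start, in which the same match begins at base -167. Of the windows of members lower in HO, 14 of 19 (73.7%) had a match within 50 bases, and of those tested without passing, 20 of 32 (62.5%) had one. Of 134 windows of 115 other mitotic genes listed for comparison, 30 (22.4%) had a match, and of 19 windows of anaphase promoting complex subunits 1 (5.26%) had one. A match is a description of these letters and shows neither a binding site nor a cause.

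**Figure D1:**
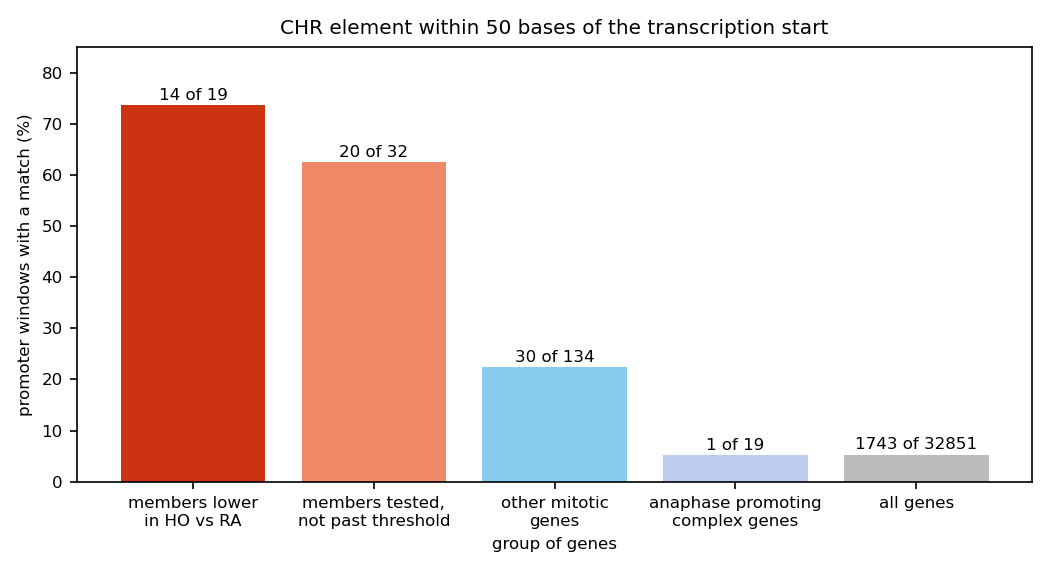
Share of promoter windows (y axis, percent) with a CHR match within 50 bases of the transcription start in 5 groups of genes (x axis), with the number of windows above each bar. The bars of members lower in HO and of members not past the threshold stand at 73.7% and 62.5%, against 5.31% for all genes.

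CCAAT boxes, which often accompany the CHR, were searched as CCAAT on both strands (ATTGG on the other strand), letters that can share at most 1 base with a CHR match. They were found in 39 of 54 member windows (72.2%) and in 12289 of 32851 windows of all genes (37.4%). Both kinds of match together stood in 57.4% of member windows and in 2.24% of all. The 100 bases before the start are shown for 2 genes that were lower in HO, Top2a and Kif11, and 2 that did not differ beyond their spread, Ccnf and Bub3, with CHR and CCAAT matches in capitals.
Top2a: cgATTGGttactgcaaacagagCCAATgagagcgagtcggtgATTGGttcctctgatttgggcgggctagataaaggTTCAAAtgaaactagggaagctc
Kif11: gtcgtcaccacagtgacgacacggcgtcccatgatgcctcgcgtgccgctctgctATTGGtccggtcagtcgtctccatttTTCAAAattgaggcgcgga
Ccnf: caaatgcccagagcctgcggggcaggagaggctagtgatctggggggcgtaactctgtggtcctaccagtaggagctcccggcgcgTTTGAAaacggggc
Bub3: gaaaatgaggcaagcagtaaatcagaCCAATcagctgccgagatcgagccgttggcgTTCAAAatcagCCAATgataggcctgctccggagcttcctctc
They lie at chr11:99024190-99024289 (minus strand) for Top2a, chr19:37376282-37376381 (plus strand) for Kif11, chr17:24251410-24251509 (minus strand) for Ccnf and chr7:131560270-131560369 (plus strand) for Bub3. Within these 100 bases, Top2a has 3 CCAAT matches before its CHR match, Kif11 has 1, Bub3 has 1 on each side of its CHR match, and Ccnf has none.

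Hyperoxia was compared with room air to see how the mitotic genes responded to 85% oxygen. Of the 56 tested members, 23 were lower in HO than in RA at an adjusted p under 0.05 and 0 were higher (limma with Benjamini-Hochberg adjustment over 13831 genes). Among all tested genes 0.788% were lower and 1.19% were higher by the same rule. At an unadjusted p under 0.05, 41 of the 56 members passed, against 18.2% of all genes. The summed FPKM of the 60 members was 274, 283 and 272 in the RA libraries and 214, 203 and 210 in the HO libraries, a difference of -24.5% between the means. The groups do not overlap in this sum.

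Of the 10 roles into which the members were sorted, 8 held at least 1 gene past the threshold. Over the 60 members, including those not tested, 48 had every HO library below every RA library and 0 had every HO library above, against 7.03% below among 33928 genes with any value. Among the tested genes 10.4% were below in this way. The median change of the means over the 60 members was -31.8%. Over the 56 tested the median log2 fold change was -0.41, against -0.01 for all tested genes, and 53 of the 56 were negative, against 51.8% of all. The members ranged from -0.88 for Pimreg to 0.41 for Ncapd2. Fold changes are differences in log2(scaled FPKM + 1), which understate the change of genes as low as these.

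**Figure D2:**
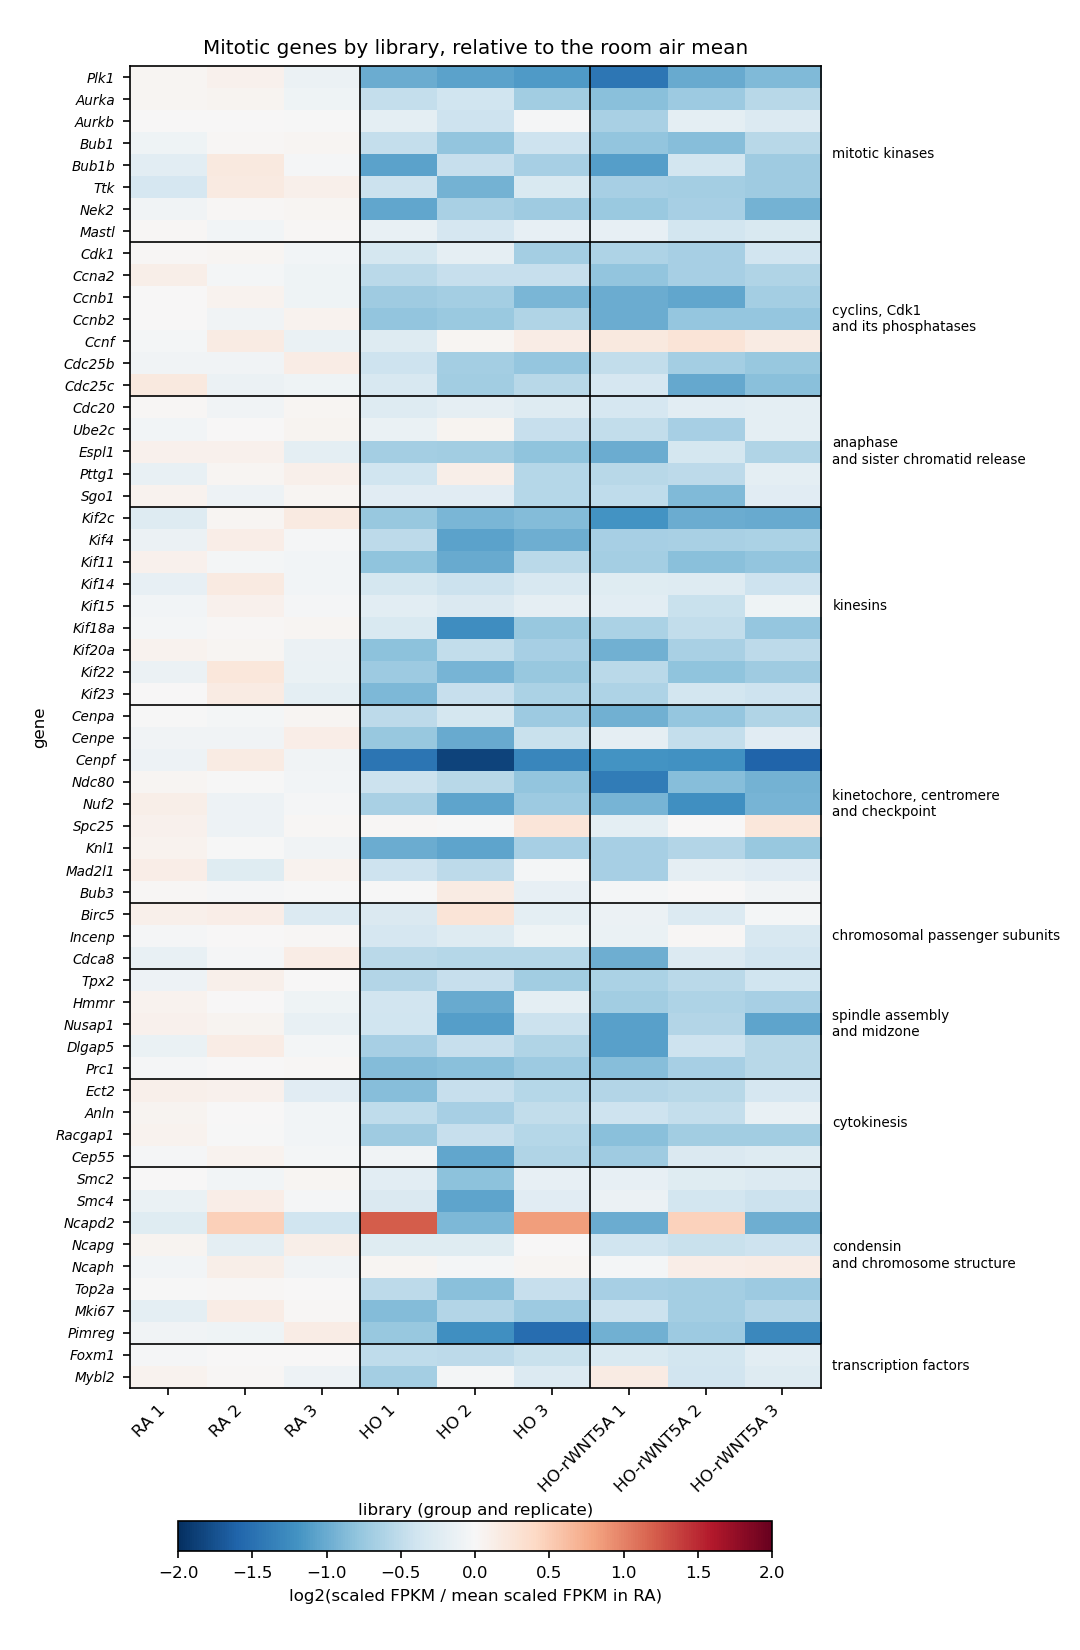
Level of each of the 60 members (rows, by role) in each of the 9 libraries (columns), as log2 of scaled FPKM over the mean of the RA libraries, blue for lower and red for higher. Most rows are blue in all 6 libraries kept in 85% oxygen, Bub3, Spc25, Ncaph and Ccnf are pale throughout, and Ncapd2 changes colour between libraries of 1 group.

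Among the 8 mitotic kinases 3 were lower, Plk1, Aurka and Nek2, and the median log2 fold change of the 8 was -0.42. Plk1 (chromosome 7, 122159439 to 122169873, GRCm38), the Polo-like kinase that acts from mitotic entry to cytokinesis, had 4.02, 4.17 and 3.61 FPKM in RA and 1.97, 1.88 and 1.80 in HO. Every HO library lay at about the same level, far below the lowest RA library, and the log2 fold change was -0.77 ± 0.10 (SE, n = 3 per group, limma adjusted p = 0.0111). Aurka (chromosome 2, 172356190 to 172370535), the Aurora kinase of the spindle poles, had 6.32, 6.39 and 5.80 in RA and 4.44, 4.70 and 3.79 in HO (-0.44 ± 0.088, limma adjusted p = 0.0394). The groups did not overlap for Aurka either. Nek2, which acts in centrosome separation, had 2.50, 2.65 and 2.70 in RA and 1.28, 1.67 and 1.6 in HO (-0.53 ± 0.091, limma adjusted p = 0.0229).

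Aurkb, the Aurora kinase of the chromosomal passenger complex, had 3.37, 3.35 and 3.31 in RA and 2.91, 2.50 and 3.30 in HO. HO replicate 3 came up to the level of RA, and the log2 difference of -0.16 ± 0.10 had a limma adjusted p of 0.458. The checkpoint kinase Bub1 had 3.03, 3.27 and 3.28 in RA and 2.30, 1.85 and 2.39 in HO, with no overlap, and missed the threshold (-0.40 ± 0.093, limma adjusted p = 0.0575). Mastl, the kinase that holds back a phosphatase opposing Cdk1, had the smallest difference of the kinases (-0.14 ± 0.081, limma adjusted p = 0.41).

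Of the 7 cyclins, Cdk1 and Cdc25 phosphatases, 6 were tested and 3 were lower, all of them cyclins. Ccnb1 (chromosome 13, 100778650 to 100786570), the B-type cyclin that activates Cdk1, had 8.67, 9.04 and 8.12 FPKM in RA and 5.26, 5.35 and 4.55 in HO (log2 fold change -0.67 ± 0.093, limma adjusted p = 0.0133). Ccnb2 (chromosome 9, 70407692 to 70421547), its relative, had 5.0, 4.78 and 5.24 in RA and 2.90, 2.99 and 3.30 in HO (-0.56 ± 0.078, limma adjusted p = 0.0125). Ccna2, the A-type cyclin of S phase and early mitosis, had 7.63, 6.81 and 6.64 in RA and 4.86, 5.11 and 5.11 in HO (-0.41 ± 0.072, limma adjusted p = 0.0244). None of these 3 cyclins overlapped between the groups.

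Cdk1 itself had 5.83, 5.88 and 5.56 in RA and 4.53, 5.08 and 3.6 in HO. Its HO libraries were all below RA but spread widely, and it missed the threshold (-0.33 ± 0.10, limma adjusted p = 0.137). Ccnf, a cyclin that serves as a ubiquitin ligase adaptor, had 4.34, 4.98 and 4.04 in RA and 3.74, 4.55 and 4.94 in HO. The groups overlapped in full, and the log2 difference of -0.01 had a 95% interval from -0.23 to 0.20. Cdc25c, a phosphatase that activates Cdk1, was too low to test, with a mean of 0.99 FPKM.

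None of the 4 tested genes of anaphase and sister chromatid release passed the threshold. Cdc20, which turns on the anaphase promoting complex, had 10.9, 10.2 and 11 FPKM in RA and 8.94, 9.44 and 8.91 in HO, a small difference without overlap (-0.21 ± 0.061, limma adjusted p = 0.108). Espl1, separase, had the largest difference of the 4 (-0.37 ± 0.10, limma adjusted p = 0.0994) and Ube2c, the complex's ubiquitin-conjugating enzyme, the smallest (-0.16 ± 0.13, limma adjusted p = 0.533). Pttg1, securin, had 3.68, 4.22 and 4.41 in RA and 3.12, 4.45 and 2.77 in HO, with HO replicate 2 above every RA library. Sgo1, which protects centromeric cohesion, was not tested at a mean of 0.801.

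The kinesins were the role with the most genes past the threshold. All 9 had every HO library below every RA library, 6 passed the threshold, and their median log2 fold change was -0.51. Their summed FPKM was 25.6, 28.2 and 25.5 in RA and 16.8, 16.6 and 17.1 in HO. Kif11 (chromosome 19, 37376403 to 37421859), the motor that pushes spindle poles apart, had 2.61, 2.40 and 2.38 in RA and 1.41, 1.22 and 1.69 in HO (-0.51 ± 0.092, limma adjusted p = 0.0281). Kif2c, which depolymerises microtubules at centromeres, showed the largest log2 fold change of the 9 (-0.58 ± 0.098, limma adjusted p = 0.0213), with 2.52, 3.10 and 3.42 in RA and 1.78, 1.60 and 1.65 in HO. Kif23, the motor of the centralspindlin complex at the midzone, had 3.65, 4.08 and 3.19 in RA and 1.95, 2.64 and 2.36 in HO (-0.48 ± 0.10, limma adjusted p = 0.048).

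The other 3 kinesins that passed were Kif20a, a midzone motor, at -0.55 ± 0.10, and the chromosome-bound motors Kif22 and Kif4 at -0.56 ± 0.097 and -0.52 ± 0.099 (limma adjusted p = 0.0314, 0.0231 and 0.0332). Kif15 had the smallest difference, with 2.47, 2.72 and 2.52 in RA and 2.22, 2.10 and 2.27 in HO (-0.16 ± 0.085, limma adjusted p = 0.359). Kif20a shares 1271 exon bases with Cdc23 on the opposite strand and Kif4 shares 832 with Pdzd11. Outside the kinesins, Prc1 shares 911 with Rccd1 and Ccna2 shares 510 with Exosc9, also on the opposite strand. Whether the counting used strand is not given in the sources used here, so reads of such pairs cannot be told apart. In all, 15 members share exon bases with a gene on the opposite strand.

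Of 9 genes of the kinetochore, centromere and checkpoint, 7 were tested and 3 were lower. Cenpa (chromosome 5, 30666777 to 30674830), the histone H3 variant that marks centromeres, had 9.07, 8.93 and 9.44 FPKM in RA and 6.39, 7.21 and 5.51 in HO (log2 fold change -0.47 ± 0.097, limma adjusted p = 0.0434). Knl1, the scaffold on which checkpoint proteins gather, had 1.61, 1.53 and 1.47 in RA and 0.778, 0.741 and 0.971 in HO (-0.47 ± 0.09, limma adjusted p = 0.0332). Nuf2, a subunit of the microtubule-binding Ndc80 complex, had 3.21, 2.76 and 2.92 in RA and 1.88, 1.43 and 1.79 in HO (-0.56 ± 0.097, limma adjusted p = 0.0234).

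Spc25, another subunit of that complex, had 6.83, 6.0 and 6.55 in RA and 6.54, 6.42 and 7.66 in HO, with overlapping groups and a log2 difference of 0.08 whose 95% interval ran from -0.15 to 0.30 (limma adjusted p = 0.732). Ndc80 itself, too low to test at a mean of 0.88, had 1.27, 1.22 and 1.19 in RA and 0.911, 0.835 and 0.714 in HO. The difference between Spc25 and its partners was not tested.

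The lowest HO levels relative to RA were those of Cenpf, a large kinetochore and nuclear matrix protein, which also missed the filter at a mean of 0.905. It had 1.45, 1.73 and 1.48 in RA and 0.566, 0.43 and 0.627 in HO, so that the mean in HO was 0.348 of that in RA. Cenpe, the kinetochore motor, had 1.54, 1.53 and 1.77 in RA and 0.95, 0.802 and 1.18 in HO (-0.41 ± 0.10, limma adjusted p = 0.0723). Of the checkpoint proteins, Mad2l1 had 3.57, 2.75 and 3.43 in RA and 2.43, 2.27 and 3.15 in HO, overlapping through HO replicate 3. Bub3, which loads Bub1 onto kinetochores, had 19.9, 19.3 and 19.5 in RA and 19.4, 22.0 and 17.4 in HO. Its means were 19.6 ± 0.319 and 19.6 ± 2.32 (SD, n = 3), and the 95% interval of the log2 difference ran from -0.17 to 0.16 (limma adjusted p = 0.982).

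The chromosomal passenger subunits, which place Aurkb on centromeres and later on the midzone, gave 0 calls among 3 tested by limma, and 1 had an unadjusted p under 0.05. That one was Cdca8, borealin, with 3.26, 3.57 and 4.03 FPKM in RA and 2.49, 2.44 and 2.44 in HO (-0.42 ± 0.12, limma adjusted p = 0.114). Birc5, survivin, had 3.63, 3.71 and 2.79 in RA and 2.78, 4.03 and 2.95 in HO, with the highest and the lowest value both in HO. Incenp, the scaffold of the complex, had 3.54, 3.59 and 3.65 in RA and 2.84, 3.0 and 3.38 in HO (-0.18 ± 0.085, limma adjusted p = 0.308).

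All 5 genes of spindle assembly and the midzone had HO below RA without overlap, and 2 passed the threshold. Prc1 (chromosome 7, 80294450 to 80316259), which bundles antiparallel microtubules at the midzone, had 8.96, 9.13 and 9.31 FPKM in RA and 5.03, 5.13 and 5.53 in HO. The spread within each group was small beside the gap between them, and the log2 fold change of -0.70 ± 0.073 had the smallest p of the members (limma adjusted p = 0.009). Tpx2, which activates Aurka and nucleates spindle microtubules, had 5.09, 5.84 and 5.47 in RA and 3.64, 3.98 and 3.39 in HO (-0.47 ± 0.082, limma adjusted p = 0.0234). Hmmr, Nusap1 and Dlgap5 lay between -0.39 and -0.37 and did not pass.

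Among the 4 cytokinesis genes, 2 were lower. Anln (chromosome 9, 22332012 to 22389188), anillin, which ties the contractile ring together, was the most abundant member after Bub3, with 18.0, 17.3 and 16.7 FPKM in RA and 12.2, 10.9 and 12.3 in HO (log2 fold change -0.52 ± 0.083, limma adjusted p = 0.0191). Racgap1, the partner of Kif23 in centralspindlin, had 6.43, 6.09 and 5.95 in RA and 3.74, 4.46 and 4.15 in HO (-0.49 ± 0.075, limma adjusted p = 0.0159). Both genes had clearly separate groups. Ect2, the exchange factor that centralspindlin recruits, reached a limma adjusted p of 0.0507 at -0.48 ± 0.11. Cep55, of the final cut, had 1.55, 1.65 and 1.52 in RA and 1.5, 0.767 and 1.04 in HO, with HO replicate 1 close to RA.

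**Figure D3:**
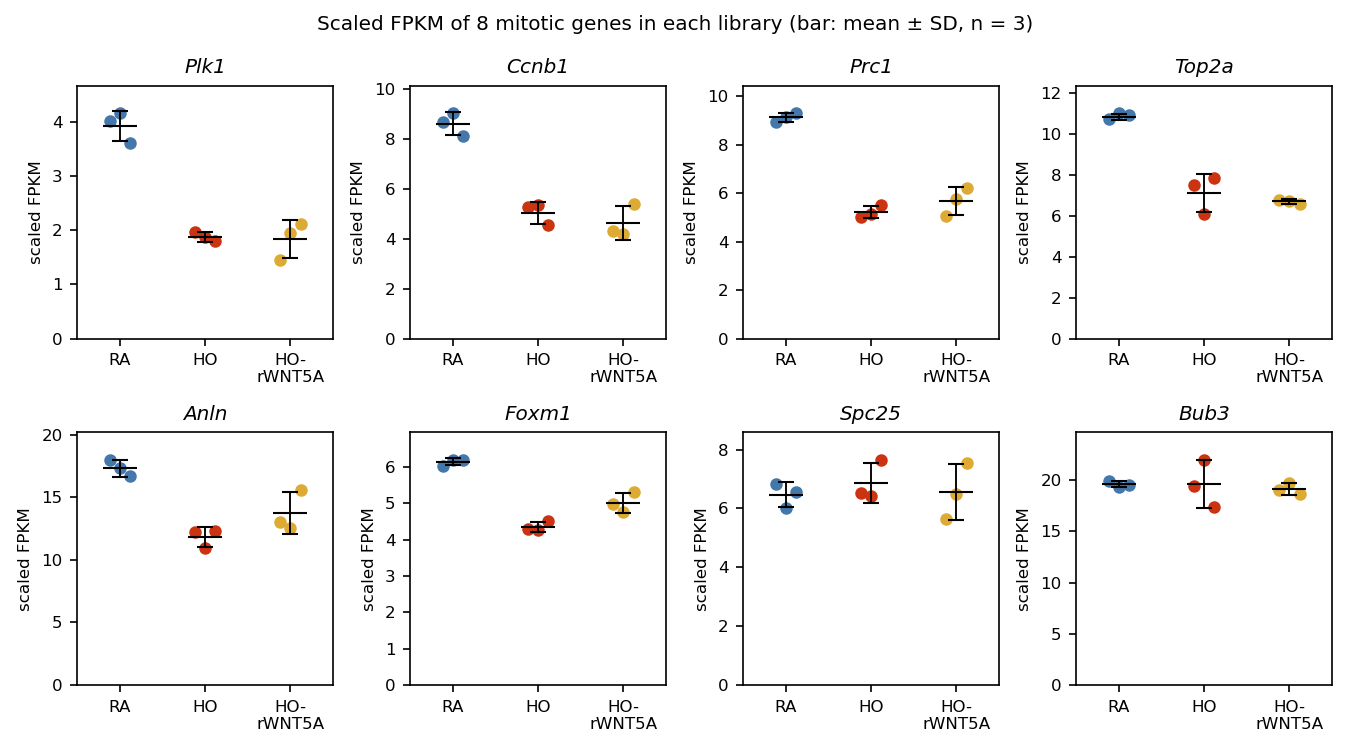
Scaled FPKM (y axis, from 0) of 8 members in each library of RA, HO and HO-rWNT5A (x axis); points are libraries and bars the mean ± SD of 3. Plk1, Ccnb1, Prc1, Top2a, Anln and Foxm1 have every HO library below every RA library, whereas Spc25 and Bub3 overlap.

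Of the 8 genes of condensin and chromosome structure, 3 were lower, and none of these 3 encodes a condensin subunit. Top2a (chromosome 11, 98992943 to 99024189), the topoisomerase that untangles sister chromatids, had 10.7, 11 and 10.9 FPKM in RA and 7.49, 6.07 and 7.81 in HO (log2 fold change -0.55 ± 0.081, limma adjusted p = 0.015). Mki67, which coats mitotic chromosomes and is used as a proliferation marker, had 2.67, 3.42 and 3.11 in RA and 1.68, 2.04 and 1.85 in HO (-0.51 ± 0.095, limma adjusted p = 0.0315). Pimreg, a regulator of the metaphase to anaphase transition, had 4.70, 4.64 and 5.47 in RA and 2.91, 2.12 and 1.71 in HO (-0.88 ± 0.14, limma adjusted p = 0.019). In each of the 3 the groups were apart.

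The condensin core ATPases Smc2 and Smc4 had HO replicate 2 well below the other libraries of the group. Smc4 had 6.15, 7.40 and 6.61 in RA and 5.48, 3.22 and 5.75 in HO (-0.44 ± 0.16, limma adjusted p = 0.189), and Smc2 had 5.03, 4.81 and 5.17 in RA and 4.34, 2.84 and 4.45 in HO (-0.32 ± 0.12, limma adjusted p = 0.198). Of the other subunits of condensin I, Ncaph had 5.21, 5.86 and 5.15 in RA and 5.53, 5.26 and 5.53 in HO, a log2 difference of 0.01 with a 95% interval from -0.15 to 0.17. Ncapg had a difference of -0.10 ± 0.089 (limma adjusted p = 0.592). The groups of Ncaph and Ncapg overlapped.

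Ncapd2 (chromosome 6, 125168007 to 125191701), the third non-ATPase subunit, had a mean 54.7% higher in HO than in RA, the largest rise of a mean among the 60, and its libraries disagreed widely. Its summed FPKM was 5.64, 9.24 and 5.06 in RA, 15.3, 3.55 and 11.9 in HO, then 3.35, 9.11 and 3.38 in HO-rWNT5A. Most of that spread came from 1 retained-intron transcript of 682 bases, Ncapd2-203, with 0.801, 4.57 and 0.694 in RA, 11.9, 0.295 and 8.69 in HO, then 0.111, 6.19 and 0.32 in HO-rWNT5A. Its exon from 125186100 to 125186595 overlaps Scarna10 (125186359 to 125186683, same strand), a small Cajal body RNA, and the genes share 237 exon bases, so reads could be split between them. The protein-coding Ncapd2-201 was even, with 4.08, 3.70 and 3.57 in RA, 2.82, 2.75 and 2.67 in HO, then 2.62, 2.63 and 2.38 in HO-rWNT5A. Summed over protein-coding transcripts alone, Ncapd2 was lower in HO (log2 fold change -0.36 ± 0.068, limma adjusted p = 0.0349, 10708 genes tested). Without Ncapd2 the sum of the members was 269, 274 and 267 in RA and 198, 200 and 198 in HO, a difference of -26.4%.

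**Figure D4:**
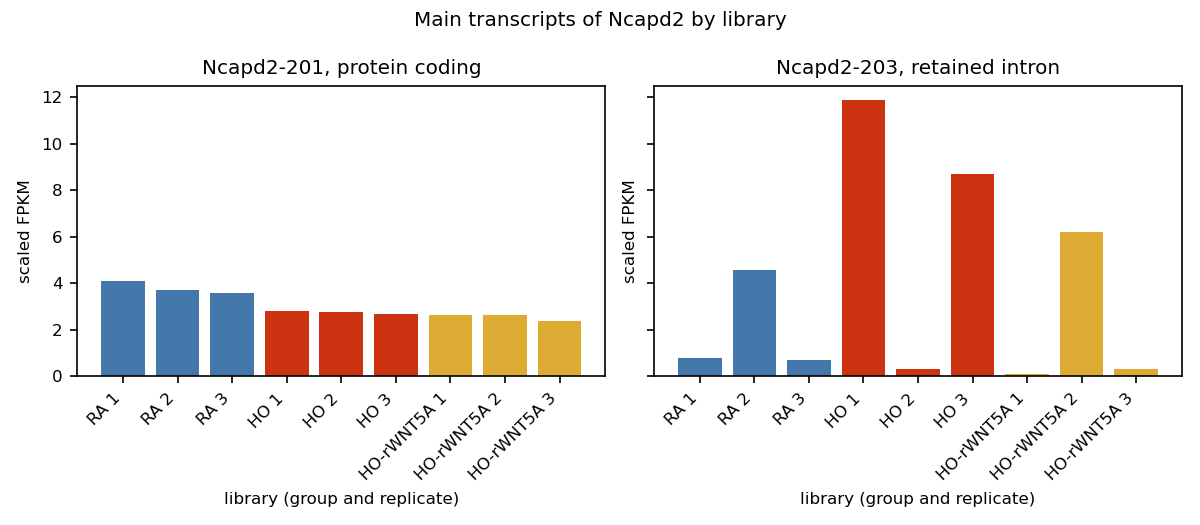
Scaled FPKM (y axis, from 0) of the protein-coding Ncapd2-201 and the retained-intron Ncapd2-203 in each of the 9 libraries (x axis), coloured by group. Ncapd2-201 lies between 2.38 and 4.08, and Ncapd2-203 between 0.111 and 11.9 with tall and short bars in every group.

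The transcription factors known to drive many of these genes were Foxm1 and Mybl2. Foxm1 (chromosome 6, 128362967 to 128376146), a forkhead factor of G2 and M phase, had 6.03, 6.21 and 6.21 FPKM in RA and 4.31, 4.26 and 4.52 in HO (log2 fold change -0.42 ± 0.063, limma adjusted p = 0.015). Its libraries agreed closely within each group, and the groups were apart. Mybl2, which works with the MuvB complex, had 1.60, 1.56 and 1.43 in RA and 0.958, 1.49 and 1.27 in HO, overlapping through HO replicate 2 (-0.18 ± 0.12, limma adjusted p = 0.445).

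No single transcript of a member passed the test. Of 393 listed transcripts of the members 65 were tested and 0 passed the threshold in HO against RA (limma, background 0.0153% of 26158 transcripts), while 32 had an unadjusted p under 0.05 (background 11.3%). The summed protein-coding transcripts of the members were 228, 227 and 226 in RA and 168, 172 and 166 in HO, a difference of -25.7%. Retained-intron transcripts differed by -15.4%, or by -31.2% without Ncapd2-203, and transcripts marked for nonsense-mediated decay by -28.4%. For Cenpa only 25.1% of the FPKM lay in protein-coding transcripts, which had 3.02, 2.39 and 1.97 in RA and 2.22, 2.24 and 1.35 in HO. That coding sum overlapped between the groups (-0.24 ± 0.15, limma adjusted p = 0.452), so the call for the Cenpa gene sum was not seen in its coding transcripts. The coding sums of Kif23 and Foxm1 also missed the threshold (limma adjusted p = 0.0639 and 0.0556), with groups that did not overlap. Bub1, not called as a gene sum, passed in its coding sum (limma adjusted p = 0.026).

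The rest of the mitotic machinery was read from 141 further genes in 9 lists, of which 122 were tested. Their median log2 fold change in HO against RA was -0.08, and 1 was lower and 2 were higher, shares near the 0.788% and 1.19% of all genes. Ckap2l, a spindle protein, had 2.88, 2.63 and 2.73 FPKM in RA and 1.40, 1.52 and 1.53 in HO (-0.59 ± 0.089, limma adjusted p = 0.015). The genes that were higher were Gtse1, a microtubule-associated protein that also binds p53, at 0.47 ± 0.065, and Cdkn1a, the Cdk inhibitor p21, at 0.48 ± 0.079 (limma adjusted p = 0.0121 and 0.0193). Both had every HO library above every RA library. By looser measures more of these further genes lay below RA. At an unadjusted p under 0.05, 35 of the 122 passed, against 18.2% of all genes. The log2 fold change was negative for 87 of the 122, against 51.8% of all. Over the 141 genes, 39 had every HO library below every RA library and 11 had every HO library above. Among all tested genes these shares were 10.4% and 11.1%.

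None of the 27 tested among 36 other centromere and kinetochore genes passed (limma, 8 with an unadjusted p under 0.05, median -0.09), with Kntc1 at -0.41 ± 0.09 (limma adjusted p = 0.0511) and Cenpt at 0.26 ± 0.06 (limma adjusted p = 0.0593). The 17 subunits and regulators of the anaphase promoting complex gave 0 calls (3 with an unadjusted p under 0.05) and a median of -0.03. Cohesin genes had a median of -0.05, the other condensin subunits -0.15, and centriole and centrosome genes -0.18. Augmin subunits had -0.07, and the genes of DREAM and MuvB, complexes that bind the CHR, had 0.03. Other spindle and kinesin genes, at -0.22, had 14 of 21 tested with an unadjusted p under 0.05. No test of the members against these lists was made.

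The number of calls in HO against RA depended on single libraries. It was 2 without RA replicate 1, 0 without RA replicate 2 and 2 without RA replicate 3. In the fit without RA replicate 2, 36 of 54 tested members had an unadjusted p under 0.05. Among all tested genes, the 109 lower calls became 9, 0 and 3 in the same fits, and 299 without HO replicate 3. The median of the tested members lay between -0.42 and -0.38 whichever library was left out. For the members, the number of calls was 15, 11 and 27 without HO replicates 1, 2 and 3. Without HO-rWNT5A replicates 1, 2 and 3 this number was 20, 15 and 18. Without both HO replicates 2 and 3 it was 1, with 35 of 58 tested members at an unadjusted p under 0.05 and a median of -0.36. Of the cell type markers, 1 of the 7 tested for pericytes and smooth muscle was higher in HO, the 1 tested for mesothelium was lower and 0 of 6 pan-endothelial markers passed, and their part in the result was not tested.

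HO-rWNT5A was compared with HO to ask whether WNT5A protein altered the mitotic genes in 85% oxygen. By limma 0 of 56 tested members passed the threshold in either direction, against 0.00723% of all genes lower (1 gene) and 0 higher. At an unadjusted p under 0.05, 4 members passed, against 9.25% of all genes. The median log2 difference of the tested members was -0.01, and 30 of the 56 were negative, against 48.7% of all genes. The summed FPKM of the 60 members was 191, 205 and 209 in HO-rWNT5A, overlapping the 214, 203 and 210 of HO. For Plk1, with 1.45, 1.96 and 2.12 in HO-rWNT5A, the 95% interval of the log2 difference ran from -0.25 to 0.19, and for Kif11 from -0.20 to 0.21.

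The 4 genes with an unadjusted p under 0.05 went both ways. Ccna2 had 4.06, 4.42 and 4.64 FPKM in HO-rWNT5A, each below every HO library (-0.17 ± 0.072, limma adjusted p = 0.53). Foxm1 had 4.98, 4.77 and 5.31, each above every HO library and below every RA library (0.17 ± 0.063, limma adjusted p = 0.497). Anln had 13.0, 12.5 and 15.6, likewise between the other groups (0.19 ± 0.083, limma adjusted p = 0.528). Summed over protein-coding transcripts alone, HO-rWNT5A overlapped HO for Foxm1 and for Anln (limma adjusted p = 0.71 and 0.546). Foxm1 then had 3.57, 3.55 and 3.94 in HO-rWNT5A against 2.96, 3.59 and 3.63 in HO. For Anln these sums were 12.4, 11.5 and 14.5 against 11.7, 10.3 and 11.5. Cenpe had 1.42, 1.16 and 1.38, overlapping HO through HO replicate 3 (0.23 ± 0.10, limma adjusted p = 0.53).

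Over the 60 members, 4 had every HO-rWNT5A library below every HO library (Ccna2, Kif2c, Ndc80 and Ncapg) and 3 above (Ccnf, Anln and Foxm1), against 6.75% below and 6.31% above among all tested genes. These shares are near the background and are not a result about the members. The largest difference downward was -0.77 ± 0.46 for Ncapd2, whose sum held the uneven transcript described above, and the largest upward was 0.23 for Cenpe. The count of 0 held in all 24 alternative settings tried, in which 0 to 8 tested members had an unadjusted p under 0.05.

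**Figure D5:**
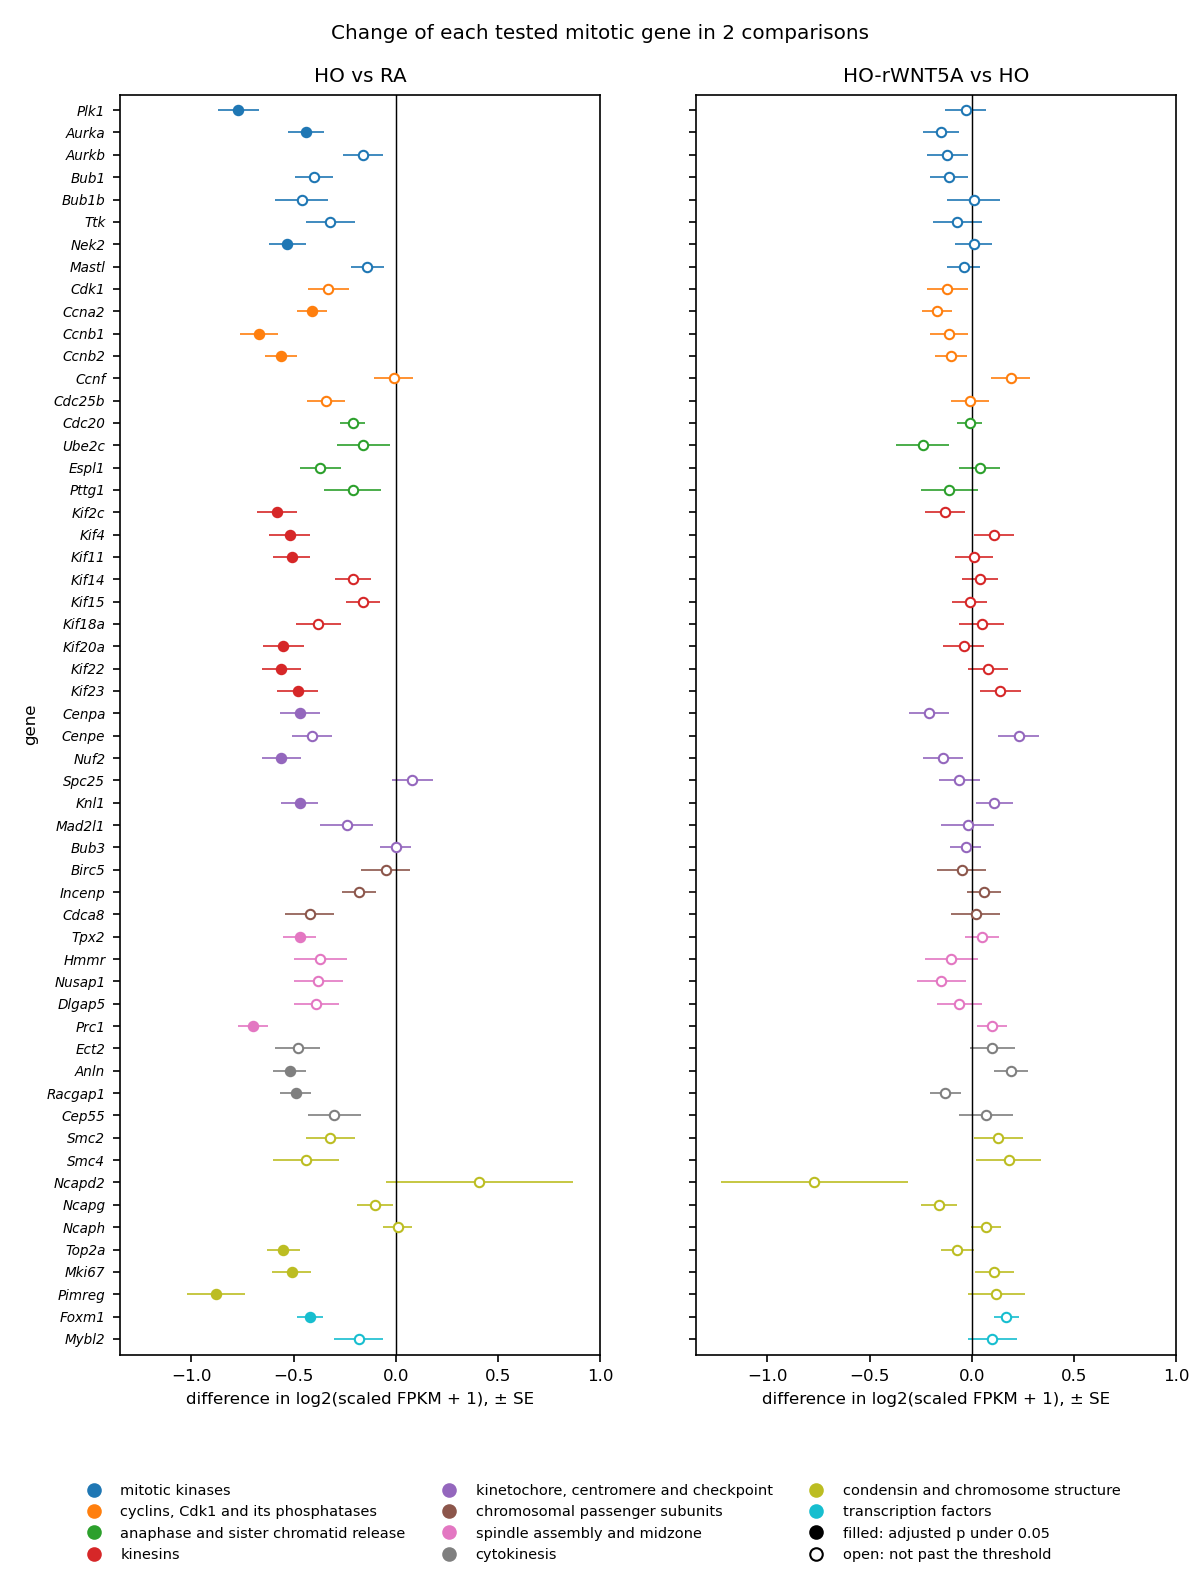
Difference in log2(scaled FPKM + 1) with its SE (x axis) for each of the 56 tested members (rows, coloured by role) in HO against RA (left) and HO-rWNT5A against HO (right); filled points have an adjusted p under 0.05. On the left 23 points are filled, all below 0, and on the right none is filled and all but Ncapd2 lie between -0.24 and 0.23; both panels use the HO libraries.

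HO-rWNT5A was also set against RA. This comparison shares the RA libraries with the first and is therefore no independent repeat of it. Of the 56 tested members 22 were lower and 0 were higher, against 1.92% and 2.42% of all genes, with a median log2 fold change of -0.39. The sign was negative for 53 of the 56, against 51.3% of all genes. Over the 60 members 50 had every HO-rWNT5A library below every RA library, against 16.7% of all tested genes. Plk1 differed from RA by -0.80 ± 0.10 (-0.77 in HO), Ccnb1 by -0.78 ± 0.093 (-0.67), Ccnb2 by -0.67 ± 0.078 (-0.56), Prc1 by -0.61 ± 0.073 (-0.70) and Top2a by -0.62 ± 0.081 (-0.55). Their limma adjusted p in this comparison was 0.00438 for the first 4 genes and 0.00487 for Top2a.

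Some members crossed the threshold in 1 of the 2 comparisons with RA. Bub1 (limma adjusted p = 0.0179), Cdk1 (0.0405) and Nusap1 (0.0444) passed in HO-rWNT5A and not in HO, whereas Kif23 (0.09), Knl1 (0.0505), Anln (0.0557) and Foxm1 (0.0538) passed in HO and not in HO-rWNT5A. The direct difference between HO-rWNT5A and HO did not pass for any of these 7 genes. Ccnf, Spc25, Bub3 and Ncaph were again close to RA, at 0.17, 0.01, -0.03 and 0.08. The count of 22 was 11 without RA replicate 1 or RA replicate 2, 12 without RA replicate 3, 14 without HO-rWNT5A replicate 1 and 13 without HO-rWNT5A replicate 2.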

How the data were processed

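RNA was measured in 9 libraries of cultured mouse cells, 3 per group, at the depth given above. The deposited values are FPKM for 143043 transcripts, made by the authors. Per the labels' protocols, reads were trimmed with Skewer 0.2.2, aligned with STAR 2.5.3a, assembled with StringTie 1.3.1 and set against an annotation with gffcompare 0.9.9c. FastQC 0.11.2, DESeq2 and both hg38 and mm10 appear, per the submitters' processing notes, with no role given. The identifiers are those of mouse. Of 142351 Ensembl identifiers 99.36% were found in GENCODE M21 (GRCm38), which gave names, transcript types and coordinates. The 692 assembled transcripts without one were kept apart.

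FPKM was summed per gene and scaled by median ratios over genes with at least 1 FPKM in every library. Genes averaging 1 FPKM or more were tested with limma 3.58.1 (R 4.3.3) on log2(scaled FPKM + 1), in 1 model over all groups, with contrasts, a variance trend, two-sided tests, Benjamini-Hochberg adjustment over all tested genes and a threshold of 0.05. With 3 libraries a group, the smallest exact permutation p is 0.1. FPKM carries no counts, so depths are rough estimates. The tests were checked on simulated data drawn with independent noise for each gene and library. That check cannot speak to effects shared by the genes of a library. Motif searches used Python 3.11.15 with pandas 2.3.3, and plots matplotlib 3.10.9.

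The members and the lists were chosen with earlier results of these data known. Named genes are members past the threshold in HO against RA, the largest and smallest difference of each role, 31 genes fixed by name, members with an unadjusted p under 0.05 in HO-rWNT5A against HO, members below the filter, and up to 3 genes of each other list by smallest p. Alternatives covered pseudocounts, filters, scaling, variance models, a fit of the compared groups alone, a block for the replicate number, transcript classes and each library left out. Scaling to the protein-coding total and leaving out HO replicates 2 and 3 together were added after the data were seen. No other value columns were present.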

Additional observations from a re-analysis of the deposited data

How the results depend on the processing

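No result past its threshold changed direction under any alternative tried. The calls in HO against RA were not equally firm from gene to gene. Prc1 kept its call in 23 of 24 alternatives and Plk1 in 20 of 23. Kif23 kept its call in 8 of 23, Knl1 in 10 of 23, Kif4 and Mki67 each in 11 of 23, and Cenpa in 11 of 24. The number of members lower in HO against RA, 23 in the report, was 22 to 25 (not always of the same genes) with pseudocounts of 0.1 and 5, FPKM as deposited, quantile normalization, a robust variance, no variance trend, protein-coding or reference transcripts alone, and scaling to the protein-coding total. The count was 6 with no filter on low values (33928 genes tested), 7 of 14 with a mean of at least 5 FPKM, 5 with libraries scaled to equal totals and 10 with the 2 compared groups alone. Leaving out 1 library gave 0 to 27, and leaving out HO replicates 2 and 3 together gave 1. Fewer libraries or a wider set of tested genes enter several of these fits, and otherwise the cause was not tested. The count of 22 in HO-rWNT5A against RA was 12 with no filter, 6 with a mean of at least 5 FPKM, 31 for FPKM as deposited and with the 2 compared groups alone, and 11 to 28 with 1 library left out. Among all genes, calls were 109 lower and 164 higher in HO against RA, 179 and 103 for FPKM as deposited, and 30 and 26 at equal totals. In HO-rWNT5A against RA they were 266 lower and 335 higher, 615 and 209 for FPKM as deposited, and 164 and 93 at equal totals. Member transcripts stayed at 0 calls in every setting in which single transcripts were tested, which were not all of those above.

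With the replicate number as a block the counts were 14 in HO against RA, 19 in HO-rWNT5A against RA and 0 in HO-rWNT5A against HO. The deviations of same-numbered libraries from their group means correlated at -0.085, -0.005 and -0.06 in HO and RA, at 0.279, -0.118 and 0.129 in HO-rWNT5A and HO, and at 0.022, 0.118 and -0.024 in HO-rWNT5A and RA, so the numbers were not taken to pair the libraries.

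The members are low, with a mean between 0.801 and 19.4 FPKM, and roughly 24 fragments stood behind the thinnest value, that of Ndc80 in 1 library.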

Other observations

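The FPKM of some members lay in different transcripts in different libraries of 1 group. Incenp-201, protein coding, had 0.479, 0.82 and 0.469 FPKM in RA, 0.406, 2.75 and 2.26 in HO, then 2.42, 1.15 and 1.87 in HO-rWNT5A. The retained-intron Incenp-209 had 2.04, 1.30 and 2.05 in RA, 1.88, 0 and 0.17 in HO, then 0.179, 1.38 and 0.217 in HO-rWNT5A, high where Incenp-201 was low. In securin, Pttg1-202 had 1.64, 2.25 and 1.71 in RA and was listed at 0 in HO replicate 2 and HO-rWNT5A replicate 2, where Pttg1-203 and Pttg1-205 were listed at 2.94 and 2.02, each being at 0 in the other 8 libraries.

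The protein-coding transcripts of Cenpa had 0.803, 0.659 and 1.04 FPKM in HO-rWNT5A, each below the lowest HO library (1.35) and the lowest RA library (1.97). Their log2 difference from HO was -0.67 ± 0.15 and did not pass the threshold (limma adjusted p = 0.45), and from RA it was -0.91 ± 0.15 (limma adjusted p = 0.0152). The nonsense-mediated decay transcript Cenpa-202 had 1.92, 2.09 and 2.64 in RA, 2.43, 2.77 and 2.09 in HO, then 2.39, 2.14 and 3.24 in HO-rWNT5A, with overlapping groups.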
